A study of Macaca mulatta with 12 samples.

Results

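The mid-late corpus luteum of the rhesus macaque is described here through its brightest transcripts. The members were the 4 arrays of the mid-late, or baseline, group, out of 12 arrays in the series, and they were chosen by their labels alone. Corpora lutea were collected from normally cycling females between days 10 and 12 after the midcycle LH surge. Per the labels, these glands still secreted progesterone and stood just before regression begins. The rest of the series consists of glands taken at days 14 to 16, split by progesterone in serum: 4 late functional glands came from females above 1.5 ng/ml, and 4 late regressed glands from females under 0.5 ng/ml. No animal in any group carried a transgene or received a treatment named in the labels, and each array holds RNA of 1 gland, which mixes all of its cell types. In such whole-gland RNA, fewer cells of a type and less RNA per cell cannot be told apart.

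The corpus luteum forms from the ovulated follicle when granulosa and theca cells turn into luteal cells. These cells take up cholesterol, pass it into mitochondria with the help of STAR, cut its side chain there, and convert the pregnenolone that results into progesterone with a 3-beta-hydroxysteroid dehydrogenase. In primates the gland also makes oestrogen, inhibin and relaxin, depends on LH, and is densely supplied with blood vessels.

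Values are log2 array values as deposited, and each is given as the mean ± SD over n = 4 glands unless the 4 glands are listed. Glands 1 to 4 are the biological replicates as numbered in the sample titles. The ranking took every probe set (a group of short probes against 1 transcript) with exactly 1 gene symbol, kept the brightest of each gene over the 4 mid-late arrays, and ordered the 14132 genes by their mean. The 100 brightest genes, 0.708% of those measured, are the set described. They ran from 14.08 down to 11.79, a 4.89-fold range, while the median over all genes was 5.88. Brightness is not a count of transcripts, because probes differ in how well they bind, so the order is one of signal and holds no test.

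A background level of 4.80 was taken as the 95th percentile of 674 probe sets that carry the identifier prefix NC and no gene symbol, and 9107 genes (64.4%) lay above it. The mid-late arrays were alike in general signal, with medians from 4.36 to 4.43 and correlations over all genes between 0.988 and 0.995. Their 3′ to 5′ difference for beta-actin, a sign of RNA integrity, lay between 0.22 and 0.39. Brightness and gene identity were only partly linked, however: of the 100 brightest probe sets on these arrays, 46 have 1 gene symbol, 14 have several and 40 have none. Above the level of STAR lay 18 probe sets with several symbols or none, the brightest of them at 14.37. Such probe sets are not analysed here, so the ranking covers only part of the brightest signal.

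The brightest named transcripts combined a protease inhibitor, the cytoskeleton and the steroid pathway. TIMP1, an inhibitor of matrix metalloproteinases, read 14.23, 14.04, 14.02 and 14.06 in glands 1 to 4. TMSB10, a small protein that binds actin monomers, read 14.17, 14.10, 13.91 and 14.00. These genes took ranks 1 and 2 in every gland, in changing order, and their ranges overlapped. Each rests on 1 bright probe set. The other probe sets of TIMP1 read 8.44 and 6.19, and that of TMSB10 read 6.72. FUCA1, a lysosomal fucosidase, followed at 13.56 ± 0.12 and ACTG1, a cytoplasmic actin, at 13.56 ± 0.13.

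STAR, which carries cholesterol to the inner mitochondrial membrane, was the fifth gene. Its values in glands 1 to 4 were 13.66, 13.55, 13.38 and 13.49, and its rank within single glands lay between 4 and 7. The ranges of neighbours failed to overlap at 2 of the 19 steps among the 20 brightest genes without a LOC symbol (a placeholder name made from a gene number). The first was between TMSB10 and FUCA1 and the second between ACTB (13.08 ± 0.07) and SRGN (12.91 ± 0.11), a proteoglycan core protein of secretory granules. At the other 17 steps the ranges overlapped. Within single glands, STAR still lay above NLGN4X, and NLGN4X above B2M, in all 4. At the rest of these steps the order was reversed in at least 1 gland.

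**Figure D1:**
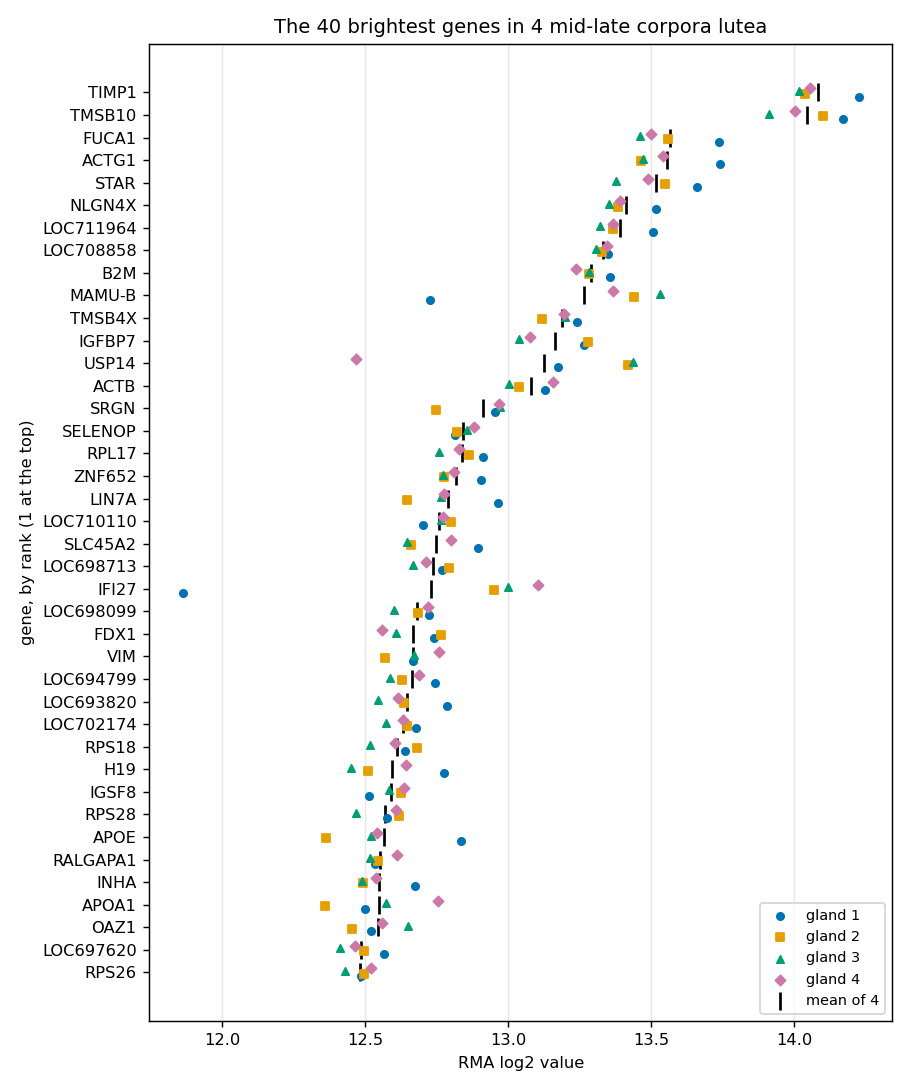
RMA log2 values (x axis) of the 40 brightest genes (y axis, rank 1 at the top) in the 4 mid-late corpora lutea, 1 coloured symbol per gland, with a black bar for the mean of 4. TIMP1 and TMSB10 stand above 13.9 in all glands, STAR lies between 13.38 and 13.66, and MAMU-B, USP14 and IFI27 each have 1 gland well below the other 3.

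Progesterone synthesis was represented near the top of the ranking. Of 15 measured members of the list for progesterone and steroid synthesis, 2 were among the 100 brightest genes and 11 among the brightest 10% (1413 genes, down to a level of 8.93). The list's median was 9.88, against 5.88 for all genes. The count among the 100 brightest was 4 instead of 2 with the mean over all probe sets of a gene, without probe set types that can match several transcripts, or without LOC symbols. FDX1, the adrenodoxin that passes electrons to the side-chain cleavage enzyme, read 12.74, 12.76, 12.61 and 12.56 in glands 1 to 4 and ranked 25. Its reductase FDXR lay lower, at 10.27 ± 0.31 and rank 453.

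HSD3B2, the enzyme that makes progesterone from pregnenolone, fell just outside the 100 brightest at rank 114. It read 11.64, 12.05, 11.16 and 11.78 in glands 1 to 4, so its gland ranks spread from 80 to 192. CYP19A1, the aromatase that makes oestrogens, held rank 115 with 12.12, 10.84, 11.85 and 11.76. Gland 2 was the lowest for CYP19A1 and the highest for HSD3B2. Both entered the 100 brightest under the same 3 alternatives, HSD3B2 at ranks 55, 68 and 87 and CYP19A1 at 56, 70 and 88.

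Other members of the list ranged from 11.35 down to below background. HSD11B1, which interconverts cortisone and cortisol, averaged 11.35 ± 0.31 (rank 164). CYB5A, an electron donor to steroid-cleaving P450 enzymes, averaged 11.17 ± 0.10 (rank 199), and DHRS9, a short-chain dehydrogenase, 9.88 ± 0.57 (rank 655). CYP17A1, which opens the androgen branch and marks theca cells, averaged 8.20 ± 0.29 (rank 2436), and HSD17B1, which makes oestradiol from oestrone, 6.08 ± 0.22 (rank 6673). CYB5R3 was the single list member below background, at 4.31 ± 0.21. CYP11A1, the side-chain cleavage enzyme itself, is not analysed here, because no probe set has it as its only symbol in the annotation used.

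Genes that supply cholesterol lay lower than STAR but mostly in the upper part of the range. Of 15 measured genes for cholesterol uptake, storage and transport, 2 were among the 100 brightest, 8 in the brightest 10%, and all 15 lay above background, with a median of 9.51. The count of 2 was 4 with the mean over probe sets and 1 without the types that can match several transcripts. APOE, which carries lipids between cells, read 12.84, 12.36, 12.52 and 12.54 (rank 34), and APOA1, the main protein of high-density lipoprotein, averaged 12.55 ± 0.16 (rank 37). NPC2, which hands cholesterol out of lysosomes, averaged 11.26 ± 0.09, and DBI, an acyl-CoA binding protein linked to mitochondrial cholesterol import, 11.15 ± 0.22. The enzymes of cholesterol synthesis were less bright as a list: 0 of 15 reached the 100 brightest, 5 were in the brightest 10%, and the median was 8.11. TM7SF2, a sterol reductase, was the highest of them at 10.17 ± 0.08 (rank 506), before FDFT1 at 9.52 ± 0.32 and EBP at 9.49 ± 0.51, with HSD17B7 next (rank 1336).

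Regulators of steroid synthesis were mostly outside the brightest 10%. Among 19 measured members of the LH receptor, cyclic AMP and steroidogenic factor list, 0 were in the 100 brightest, 5 in the brightest 10% and 16 above background, and the median was 7.65. The count of 0 became 1 when LOC symbols were left out. PGRMC1, a membrane protein that binds heme and partners P450 enzymes, was the highest at 11.54 ± 0.10 (rank 133). Its relative PGRMC2 averaged 9.49 ± 0.13, and CREM, a cyclic AMP-responsive transcription factor, 9.54 ± 0.11. NR5A2 (LRH-1), an orphan nuclear receptor that drives steroidogenic genes, averaged 9.58 ± 0.13 (rank 839), and its relative NR5A1 (SF-1) 7.02 ± 0.08 (rank 4796).

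The GATA factors showed a like spread of signal. GATA6 read 9.26, 9.30, 9.29 and 9.31 in glands 1 to 4, an SD of 0.02, while GATA4 averaged 6.31 ± 0.24. MRAP, which brings melanocortin receptors to the cell surface, averaged 8.87 ± 0.29. The probe set of PGR, the nuclear progesterone receptor, lay below background at 3.64 ± 0.12, as did those of NR0B1 (4.26 ± 0.56) and PRKACA (4.74 ± 0.22). Of the 20 luteal panel genes, 15 could be measured; LHCGR and VEGFA are also not analysed here.

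**Figure D2:**
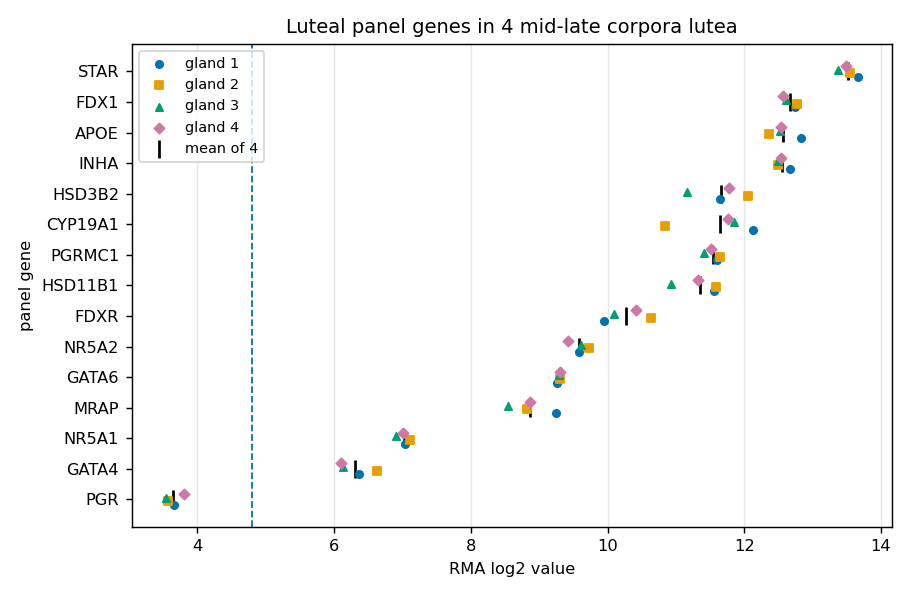
RMA log2 values (x axis) of the 15 measured luteal panel genes (y axis) in the 4 mid-late glands, 1 symbol per gland, with a black bar for the mean and a dashed line at the background level of 4.80. STAR, FDX1, APOE and INHA lie above 12.3 in all glands, and PGR lies below the dashed line.

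Hormones and growth factor proteins formed a further bright group. Of 24 measured members, 3 were in the 100 brightest and 12 in the brightest 10%, with a median of 9.01. INHA, the alpha subunit of inhibin, read 12.67, 12.49, 12.49 and 12.54 (rank 36). RLN2, the relaxin that the corpus luteum secretes, varied more, with 11.99, 11.65, 12.64 and 12.30 in glands 1 to 4, and its gland ranks ran from 28 to 120. Highest of the list was IGFBP7, a secreted binding protein of vessel walls, at 13.16 ± 0.12, while IGFBP2 averaged 11.36 ± 0.03. The other probe sets of IGFBP7 lay lower, between 9.55 and 7.53. IGFBP7 ranked 491 with the mean over probe sets and 7 without the types that can match several transcripts. At the low end, AMH (4.53 ± 0.10) and INHBB, hormones of growing follicles, lay below background.

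Outside that list, AREG, an epidermal growth factor receptor ligand that LH induces in follicles, read 11.83, 12.05, 11.53 and 12.13 (rank 87). NPTX2, a secreted pentraxin, averaged 11.92 ± 0.31 (rank 84), and ENPP2, the enzyme that makes lysophosphatidic acid, 12.00 ± 0.16 (rank 78). These 3 genes were singled out after their values were seen.

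Protein synthesis supplied the largest single group. Of 40 measured cytosolic ribosome genes, 16 were in the 100 brightest and 31 in the brightest 10%, and the list's median was 11.52. RPL17 led with 12.84 ± 0.06 (rank 17), followed by RPS18 at 12.61 ± 0.07, RPS28 at 12.57 ± 0.07 and RPS26 at 12.48 ± 0.04. RPL26 read 12.40, 12.46, 12.42 and 12.44, 1 of the 5 smallest spreads among the 100 brightest genes. RPL5, an equally constant part of the ribosome, had a probe set at 3.58 ± 0.03, below background, so a dim probe set does not show a scarce transcript. Translation factors had 0 of 14 in the 100 brightest and 7 in the brightest 10%, led by EIF1 (11.51 ± 0.08), EIF4G2 (11.34 ± 0.06), EIF4A2 (11.22 ± 0.08) and EIF3E (10.21 ± 0.03). Here too a ubiquitous gene was dim: EEF2, the elongation factor of translocation, averaged 5.37 ± 0.14.

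Cytoskeletal genes had the highest median of the 18 function lists, 11.83, with 10 of 19 measured members in the 100 brightest and 17 in the brightest 10%. Besides TMSB10 and ACTG1, TMSB4X, a second actin-binding thymosin, averaged 13.19 ± 0.05, ACTB 13.08 ± 0.07 and VIM, the intermediate filament of mesenchymal cells, 12.67 ± 0.08. The others among the 100 brightest were ARPC2, S100A6, ANXA2, MYL6 and MYL12A, between 12.23 and 11.83. Extracellular matrix genes and protease inhibitors had 2 of 25 there, TIMP1 and the collagen gene COL1A2 (12.30 ± 0.14), and 16 in the brightest 10%, with a median of 9.28. DCN, the proteoglycan decorin, averaged 11.71 ± 0.63 (rank 106), and COL1A1 averaged 11.20 ± 0.14.

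Energy metabolism and detoxification were broadly bright. Of 59 nuclear-encoded genes of oxidative phosphorylation, 45 were in the brightest 10% and 1 in the 100 brightest, and the median was 10.05. That gene was ATP5MG, a subunit of ATP synthase, at 12.41 ± 0.08, but its other probe set read 3.36, below background. The rank of ATP5MG was 1784 with the mean over probe sets, and the list's count of 1 became 5 there, 0 without the types that can match several transcripts and 3 without LOC symbols. COX6B1 (11.56 ± 0.09), UQCRQ (11.54 ± 0.10) and ATP5F1B (11.29 ± 0.06) came next. Glycolysis had 8 of 10 in the brightest 10% and a median of 10.19, led by ENO1 at 12.27 ± 0.05, with ALDOA (10.84 ± 0.11), GAPDH (10.83 ± 0.18) and LDHA (10.82 ± 0.05) behind it.

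Glutathione and antioxidant enzymes had 15 of 19 in the brightest 10%, 3 of them in the 100 brightest, and a median of 10.15. SELENOP, a secreted selenium carrier, averaged 12.84 ± 0.03. GSTA3, a glutathione transferase that also isomerises steroid precursors, averaged 12.41 ± 0.11, and GPX4, which reduces lipid peroxides, 11.79 ± 0.09. PRDX3, the mitochondrial peroxiredoxin, followed at 11.59 ± 0.04, and the probe set of PRDX6 lay below background at 3.54 ± 0.12. Among 6 measured genes of iron and heme handling, 0 were in the 100 brightest and 2 in the brightest 10%, TFRC (10.36 ± 0.16) and SLC40A1 (9.25 ± 0.28), ahead of HMOX2 (8.14 ± 0.12) and BLVRA (7.89 ± 0.15), with a list median of 8.02.

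The secretory and degradative machinery was bright as well. Protein folding and secretion had 2 of 16 in the 100 brightest and 12 in the brightest 10% (median 10.57), led by PPIB (11.95 ± 0.10, with a second probe set at 3.52), the collagen-modifying P4HB (11.83 ± 0.11), CANX (11.52 ± 0.09) and HSP90AB1 (11.22 ± 0.16). Lysosome and membrane traffic genes had 1 of 14 in the 100 brightest and 9 in the brightest 10% (median 9.75). That gene was CTSD, a lysosomal protease, with 11.78, 11.87, 12.67 and 12.80, higher in glands 3 and 4 than in glands 1 and 2. FUCA1, the lysosomal fucosidase at rank 3, is not on the lysosome list. CD63 averaged 11.34 ± 0.06, ASAH1 11.19 ± 0.15 and ATP6V0E1 11.16 ± 0.08. Proteasome and ubiquitin genes had 0 of 50 in the 100 brightest and 23 in the brightest 10% (median 8.91); USP14, a deubiquitinase of the proteasome at rank 13, is not on that list. The list's brightest members were PSMA7 (11.38 ± 0.02), UBE2F (11.02 ± 0.09), PSMB7 (10.58 ± 0.14) and UBE2D3 (10.53 ± 0.14).

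Prostaglandin pathway genes were the dimmest list, with 1 of 7 measured members in the brightest 10% and a median of 5.03, below that of all genes. HPGD, which inactivates prostaglandins, read 9.87, 8.58, 10.46 and 10.25, with gland 2 the lowest, and CBR1 averaged 8.20 ± 0.07, PTGIR 6.76 ± 0.17 and PTGER1 5.03 ± 0.17. Both prostaglandin synthases, PTGS1 and PTGS2, and the receptor PTGFR are not analysed here.

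Antigen presentation reached the top of the ranking through class I molecules. B2M, the constant light chain of class I, averaged 13.29 ± 0.05 (rank 9), and 4 of 8 measured list members were in the brightest 10% (median 9.24). CD74 averaged 9.95 ± 0.53, PSME2 9.83 ± 0.23 and TAPBP 9.56 ± 0.63, and gland 1 was the lowest for each of these 3. Of 13 rhesus histocompatibility genes with a MAMU symbol, 3 were in the 100 brightest and 7 in the brightest 10%. MAMU-B, a class I heavy chain, read 12.73, 13.44, 13.53 and 13.37, again lowest in gland 1. The genes of this family are near-identical and polymorphic, so their probe sets cannot be assigned to 1 gene or allele with certainty.

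**Figure D3:**
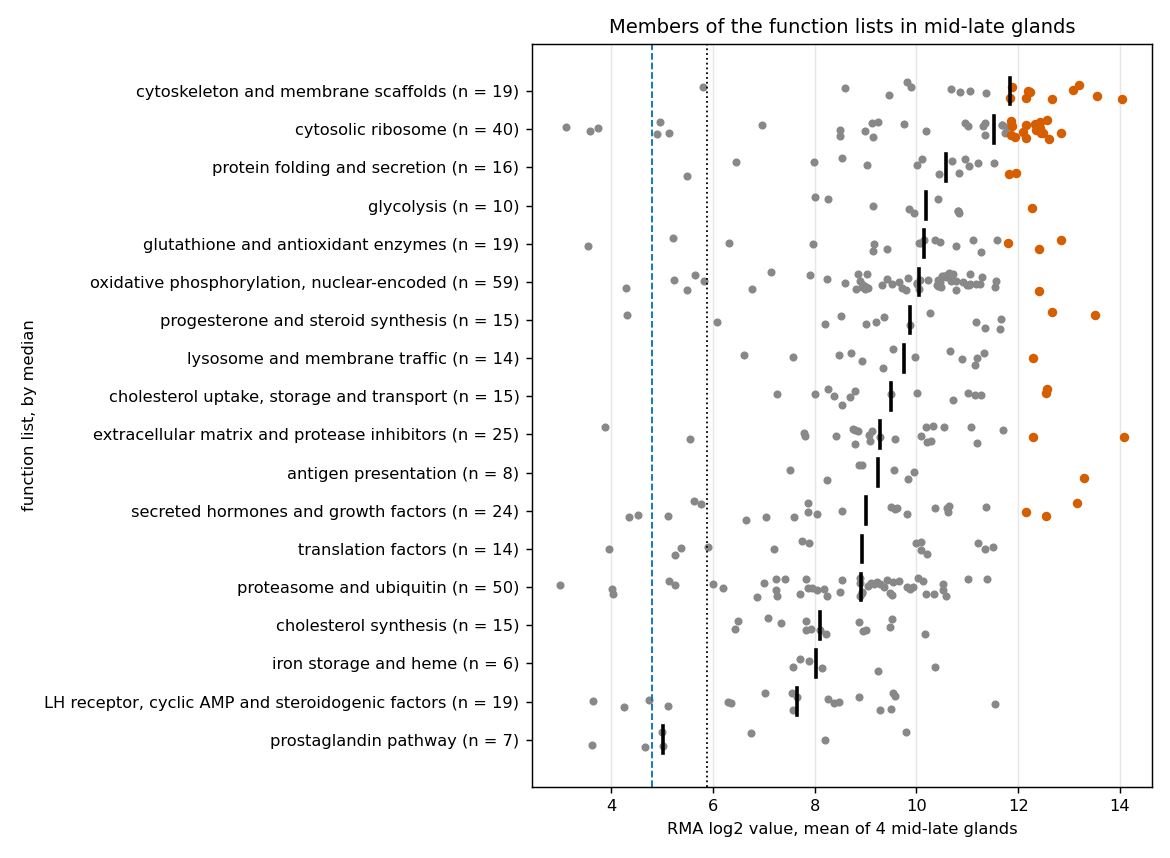
Mean RMA log2 value over 4 mid-late glands (x axis) of each measured member of the 18 function lists (y axis, ordered by median), with members of the 100 brightest genes in orange and a black bar for each list's median. The dashed line marks the background level of 4.80 and the dotted line the median of all genes, 5.88; the cytoskeleton and cytosolic ribosome lists hold most of the orange points, 10 and 16.

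In all, 44 of the 100 brightest genes belonged to a function list, against 372 of the 14132 genes measured (2.63%). The lists were assembled from genes known to be abundant or luteal, so this share describes the ranking and is not evidence of its own. A further 23 had a LOC symbol, of which the RefSeq gene table classes 12 as pseudogenes, 9 as protein coding and 2 as other RNA. Pseudogenes made up 4.32% of all genes measured. The probes of such sets can also bind the parent transcript, and which one they measured was not tested.

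The remaining 33 genes lay in no list. MAMU-B, MAMU-AG (12.15 ± 0.13) and MAMU-A (11.91 ± 0.36) are class I genes, IFI27 and BST2 (11.85 ± 0.27) respond to interferon, and RACK1 (11.98 ± 0.07) sits on the ribosome. OAZ1, the antizyme of ornithine decarboxylase, averaged 12.55 ± 0.08, and SAT1, which acetylates spermidine, 12.26 ± 0.06. H19, an imprinted non-coding RNA, averaged 12.59 ± 0.14, MT2A, a metal-binding metallothionein, 12.13 ± 0.41, and CYP3A5, a P450 enzyme that hydroxylates steroids, 12.08 ± 0.36. RTD1A, a precursor of the theta-defensin of macaques, averaged 11.82 ± 0.02.

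The others were FUCA1, NLGN4X, USP14, SRGN, ZNF652, LIN7A, SLC45A2, IGSF8, RALGAPA1, GZMB, SERF2, ATXN7, ENC1, NBEA, MYL9, ENPP2, NPTX2, LHFPL6, AREG, MFAP5 and ELOA, between 13.56 and 11.83. Several of these are better known from other tissues, such as NLGN4X, a neuronal adhesion protein, and SLC45A2, a melanosome transporter. GZMB, the granzyme of cytotoxic lymphocytes, read 11.99, 11.86, 13.02 and 12.92 in glands 1 to 4 (rank 41). Beside it, KLRD1 of natural killer cells averaged 8.75 ± 0.03, GZMA 7.92 ± 0.34 and NKG7 4.95 ± 0.19, close to background. GZMB rests on 1 probe set, and which cells its signal came from was not tested.

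Different probe sets of 1 gene often disagreed. Among the 100 brightest genes, 66 had several probe sets, against 45.1% of all genes. The median distance between a gene's brightest and dimmest probe set was 5.45 log2 in these 66, and 1.59 over all 6375 genes with several. Ranking by the brightest probe set favours genes with several and a wide distance, and dim genes have little room below theirs. Both contrasts therefore follow at least in part from the rule and show no trait of bright genes. In 11 of the 66 even the second-brightest probe set lay below background, and in 30 it lay within 1 log2 of the brightest. The 11 were NLGN4X, LIN7A, SLC45A2, RPS28, LOC697620, ATP5MG, ANXA2, RACK1, PPIB, RPL30 and MYL12A, 6 of them members of function lists.

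The widest distances, with TMSB4X (13.19 against 3.00), were those of NLGN4X and SLC45A2. NLGN4X read 13.41 ± 0.07 on 1 probe set and 4.05 and 3.58 on its others, and SLC45A2 12.75 ± 0.12 against 3.99 and 3.13. LIN7A likewise read 12.79 ± 0.13 on 1 of 6 probe sets and at most 4.26 on the rest. Luteal genes were mixed in this respect: FDX1 had a second probe set at 12.53 and APOE one at 12.32, whereas STAR, INHA, HSD3B2, CYP19A1, RLN2 and APOA1 each rest on 1. B2M (13.26), USP14 (12.96), FUCA1 (13.23) and GSTA3 (12.35) also had a second bright probe set, though further ones of FUCA1 read 7.41 and 6.06.

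**Figure D4:**
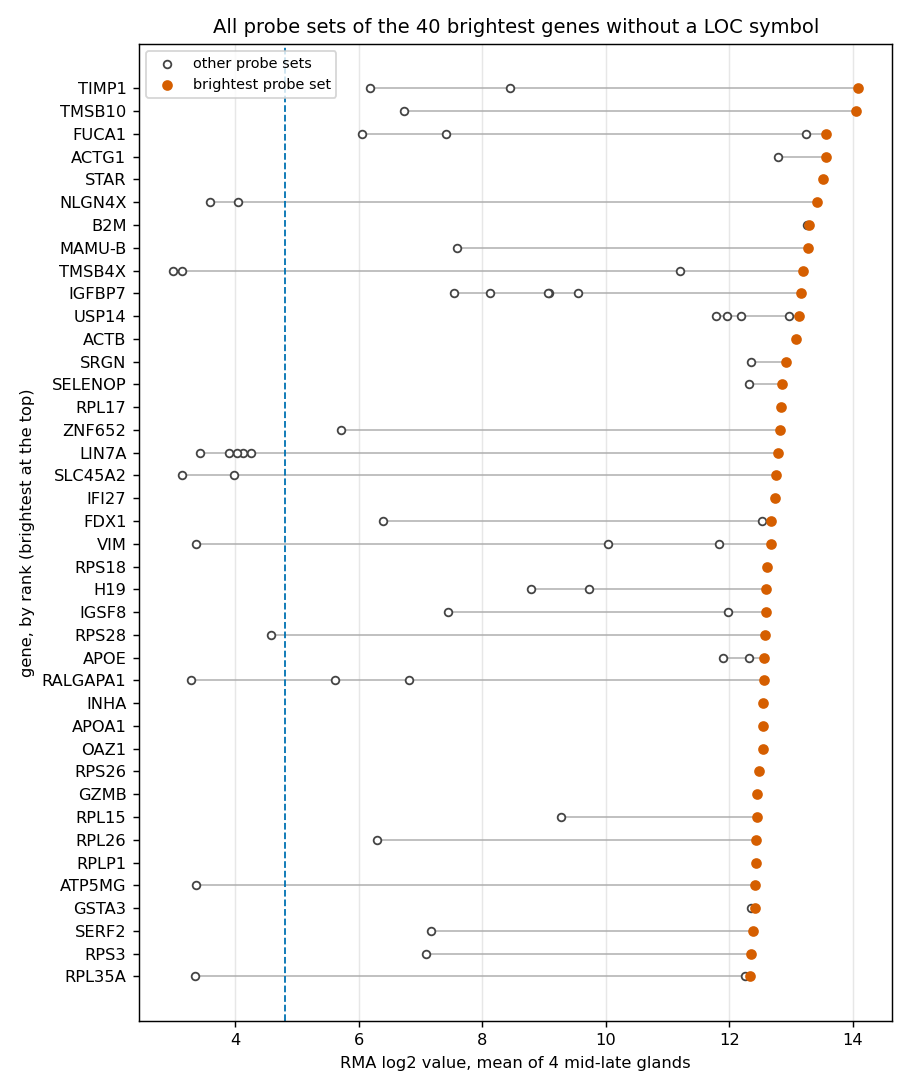
Mean RMA log2 value over 4 mid-late glands (x axis) of every probe set of the 40 brightest genes without a LOC symbol (y axis), with the brightest probe set in orange, the others as open circles and the background level of 4.80 as a dashed line. NLGN4X, LIN7A and SLC45A2 have all their other probe sets left of the dashed line, while those of USP14, B2M and APOE lie close to the brightest.

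The 100 brightest genes also differed from all genes in the type of their probe sets. Of the 100 brightest genes, 49 were represented by a probe set whose identifier ends in _x_at, _s_at or _a_at, types whose probes can match more than 1 transcript, against 9.28% of all genes. ACTG1, TMSB4X, ACTB, VIM, APOE, APOA1, RLN2, GSTA3 and the MAMU genes are among the 49, and their signal may include that of related genes.

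Spread over the 4 glands was small for most of the brightest genes. The median SD over glands was 0.09 for the 100 brightest and 0.14 for the 9007 other genes above background. An SD over 0.3 was about as frequent in both, in 10 of the 100 and in 11.9% of all genes above background. On all 4 arrays 82 of the 100 genes were also in that array's own 100 brightest, all 100 were in its 200 brightest, and the lowest rank any of them took was 147. The 100 were chosen by the mean over these same arrays, so these places follow in part from the choice. Just inside the limit of 100 lay LOC705465, RTD1A and GPX4 (11.82, 11.82 and 11.79), and just outside RPLP2, LOC713150 and LGALS1 (11.79, 11.79 and 11.77), a span smaller than the SD of GPX4 (0.09).

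The smallest SDs among the 100, all 0.03 or less, were those of LOC708858 (13.33 ± 0.02), LHFPL6 (11.91 ± 0.02), RTD1A, RPL26 and SELENOP. The largest were those of GZMB (0.61), IFI27 (0.58), CTSD (0.53), USP14 (0.45) and RLN2 (0.42). IFI27, an interferon-induced mitochondrial protein, read 11.86 in gland 1 and 12.95, 13.00 and 13.11 in the other three. USP14 read 13.18, 13.42, 13.44 and 12.47, lowest in gland 4. GZMB, CTSD and RLN2 were each higher in glands 3 and 4 than in glands 1 and 2.

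Cell type markers were set beside the tissue label. Their lists were chosen with earlier results of these data known, so the levels are a description and no check of the label. Of 9 listed luteal steroidogenic markers, 6 were measured (STAR, FDX1, APOE, INHA, HSD3B2 and CYP19A1). All 6 lay in the brightest 10%, 4 of them in the 100 brightest, with a median of 12.56. Supporting cell types were present at lower signal. Endothelial markers had 11 of 11 above background (median 8.16), led by PECAM1 (10.10 ± 0.22), CDH5 (9.98 ± 0.12) and VWF (9.97 ± 0.20). Pericyte and smooth muscle markers had 6 of 6 (median 8.71), led by MCAM (10.58 ± 0.13), TAGLN (10.30 ± 0.31) and NOTCH3 (8.84 ± 0.10). Fibroblast markers had 9 of 9 (median 7.82), with COL1A2, DCN and COL1A1 at the top.

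Macrophage and monocyte markers had 11 of 12 above background (median 8.04) and varied most between glands, with a median SD of 0.81. Their medians in glands 1 to 4 were 7.18, 7.58, 8.60 and 8.21, and C1QA (8.15, 8.61, 10.17 and 9.32) and LYZ (7.30, 8.06, 9.91 and 9.27) followed the same order, with TYROBP at 8.59 ± 0.87. The higher values of GZMB, CTSD and RLN2 in glands 3 and 4 thus stood beside higher macrophage markers, whose part in those values was not tested. T and NK cell markers had 6 of 6 above background but a median of 6.81 once GZMB is counted, and B cell markers 1 of 5 (median 4.45; CD79B 5.07 ± 0.24, CD79A 4.73 ± 0.24, MZB1 4.45 ± 0.15). Erythroid genes had 3 of 4 (median 6.69), with HBA at 10.35 ± 0.70, HBB at 7.18 ± 0.34 and ALAS2 at 6.19 ± 0.09.

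Markers of the follicle, of other ovarian compartments and of other organs had list medians below that of all genes, 5.88, with single markers well above background. Theca and stroma markers of the follicle had 1 of 3 above background (median 3.52), CYP17A1, with PTCH1 at 3.52 ± 0.20 and TCF21 at 3.29 ± 0.16. Theca cells also turn into luteal cells, so this list does not stand for a tissue apart from the gland. Markers of the growing follicle's granulosa cells had 2 of 4 (median 5.33), FST (7.04 ± 0.53) and CYP1B1 (6.13 ± 0.68). Oocyte markers had 2 of 4 (median 4.38), ZP1 (5.57 ± 0.07) and ZP3 (5.27 ± 0.24), and FIGLA lay at 3.49 ± 0.12. Surface epithelium had 2 of 6 (median 4.38), KRT18 (7.73 ± 0.35) and KRT8 (6.95 ± 0.97), with KRT19 at 4.46 ± 0.54.

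Adrenal cortex markers had 2 of 4 above background (median 5.07), CYP11B2 (6.31 ± 0.11) and CYP11B1, the 11-beta-hydroxylase of cortisol synthesis. CYP11B1 read 5.05, 7.67, 4.61 and 4.74, with gland 2 far above the others, and CYP21A2, a further adrenal enzyme, lay at 4.62 ± 0.07. Hepatocyte markers had 1 of 5 (median 3.82), SERPINA1 (7.89 ± 0.09), while APOB (4.08 ± 0.11) and TAT (3.82 ± 0.15) were below background. Neural markers had 1 of 3 (median 3.80), GFAP (5.34 ± 0.21), with STMN2 at 3.80 ± 0.04 and ELAVL4 at 3.65 ± 0.07.

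**Figure D5:**
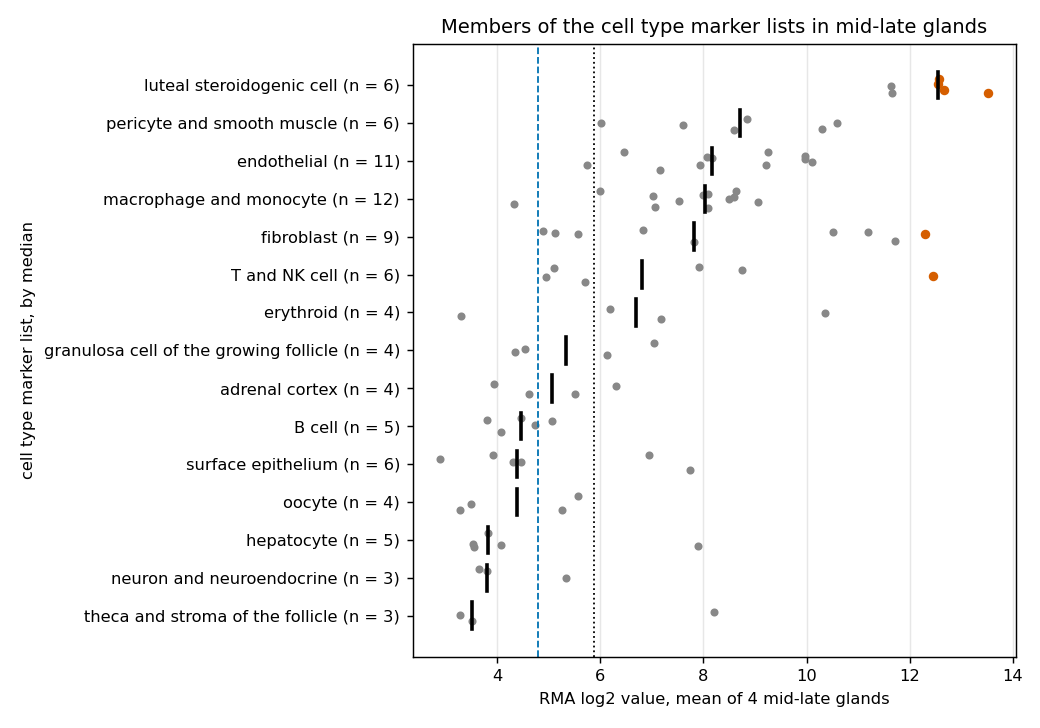
Mean RMA log2 value over 4 mid-late glands (x axis) of each measured marker of 15 cell types (y axis, ordered by median), with members of the 100 brightest genes in orange, a black bar for each median, a dashed line at the background of 4.80 and a dotted line at the median of all genes, 5.88. Luteal markers have the highest median, 12.56, and GZMB stands alone to the right of the other T and NK cell markers.

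Late glands ranked in the same way gave much of the same list. Of the 100 brightest mid-late genes, 89 were among the 100 brightest of late functional and 75 among those of late regressed glands, and 74 were in all 3 lists. No group was tested against another here, and genes picked as bright in 1 group can rank lower elsewhere through the choice alone. AREG had the lowest late ranks: 11.89 ± 0.27 in mid-late, 10.43 ± 1.28 in late functional (rank 410) and 9.16 ± 0.69 in late regressed glands (rank 1216). STAR averaged 13.52 ± 0.12, 13.50 ± 0.24 and 11.32 ± 1.77 in the same order of groups, INHA 12.55 ± 0.09, 12.37 ± 0.13 and 10.96 ± 1.61, and RLN2 12.15 ± 0.42, 13.22 ± 0.34 and 12.58 ± 0.95. TIMP1 and TMSB10 held ranks 1 and 2 in each group.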

How the data were processed

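Rhesus macaque corpora lutea were profiled on one-colour arrays with biotin-labelled targets, 1 array per gland. The deposited values are log2 values, 1 per probe set and array, and the authors used RMA, per the submitters' processing notes; the sources used here name neither its version nor a scan batch. Of 52865 probe sets, 158 controls (99 AFFX, 59 RPTR) were left out. Among the other 52707, the platform annotation gave 1 gene symbol for 24956, several for 361 and none for 27390. Of 14132 genes, 13945 were found by Entrez ID in a current RefSeq table (T2T-MMU8v2.0), and 0 symbols changed. Means, SDs and ranks were computed in Python 3.11.15 with pandas 2.3.3 from the 4 mid-late arrays alone, with no group test; the number of arrays limits the precision. The script was tested on simulated data. Named genes were the 20 brightest without a LOC symbol, up to 4 of each function list and 3 of each cell type list, a 20-gene panel, the 5 largest and 5 smallest SDs, the genes next to rank 100 and the 3 widest probe set gaps among the 100 brightest; other genes, such as the dim RPL5, EEF2 and PRDX6, were named after their values were seen. Members and lists were chosen with earlier results of these data known. Sequence features were not analysed here. Alternatives changed the probe set choice, averaging, normalization, filter, symbols, list size and arrays used.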

Additional observations from a re-analysis of the deposited data

Results flagged for a closer look

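In 10 of 165 groups of 4 glands looked at (135 named genes in mid-late glands, and the 15 panel genes also in both late groups), 1 gland stood far from the other 3 by Dixon's criterion at the 95% level. Chance gives about 1 in 20. Gland 1 of the mid-late group was the distant one for 6 genes. It was low for IFI27 (11.86), the proteasome activator gene PSME2 (9.49), the endothelial PECAM1 (9.78), the acid ceramidase gene ASAH1 (10.97) and the biliverdin reductase gene BLVRA (7.67), and high for CREM (9.70). Gland 2 was low for SRGN (12.75) and high for CYP11B1 (7.67, against 5.05, 4.61 and 4.74 in glands 1, 3 and 4). Of the late regressed glands, gland 2 was low for APOE (12.14, the others between 12.92 and 13.02) and gland 3 for GATA6 (8.34, the others between 8.85 and 8.89).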

How the results depend on the processing

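Which genes count as brightest depended on the choice of probe set more than on any other setting tried. With the mean over all probe sets of a gene, 55 of the 100 genes stayed in the 100 brightest and that list held 3 cytoskeletal genes in place of 10. TIMP1 then ranked 430, TMSB10 198, FDX1 169, NLGN4X 3214, SLC45A2 4021 and LIN7A 6855, whereas STAR ranked 1 and INHA 15. Without probe sets ending in _x_at, _s_at or _a_at, 59 stayed, 24 of the 100 had no probe set left, and the list held 6 cytoskeletal genes. The brightest 50 genes held 25 list members, 9 of them ribosomal and 5 cytoskeletal, and the brightest 200 held 77 list members. Leaving out each gland in turn kept 96 to 100 of the 100 genes, and the median SD ran from 0.08 to 0.10. Choosing probe sets over 12 arrays was tried on ranks alone, without list counts. None of the 135 named genes then moved beyond the SD of its ranks over the 4 glands. The next settings were median over arrays, linear averaging, renewed quantile normalization, median centring, the background filter and the omission of LOC symbols. They moved none of the counts of list members in all, of ribosomal or of cytoskeletal genes by over 1.5 times. Other lists did move: without LOC symbols, steroid synthesis went from 2 to 4, oxidative phosphorylation from 1 to 3 and LH receptor and cyclic AMP genes from 0 to 1. With the mean over probe sets, steroid synthesis and cholesterol transport went from 2 to 4, oxidative phosphorylation from 1 to 5, antioxidant enzymes from 3 to 5, lysosome genes from 1 to 2, glycolysis from 1 to 0 and matrix genes from 2 to 1. Without the probe set types named, steroid synthesis went from 2 to 4, cholesterol transport from 2 to 1, oxidative phosphorylation from 1 to 0 and proteasome genes from 0 to 1. No paired analysis was possible because the results come from no test between groups. Signal near background limits the order of dim genes.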

Other observations

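The genes that differed most between single mid-late glands were not the brightest ones; they were picked after their values were seen. RARRES1, a membrane protein that retinoids induce, had the largest SD of all genes above background: it read 12.66, 6.86, 12.17 and 11.86 in glands 1 to 4. Its second probe set gave 9.93, 3.95, 9.67 and 9.26, so both were low in gland 2, and the gene averaged 12.48 ± 0.21 in late functional and 11.20 ± 2.18 in late regressed glands (n = 4 each). Of the 20 genes with the largest SDs (1.17 or more), 12 were higher in both glands 3 and 4 than in glands 1 and 2, against 22.4% of all genes above background. The 12 include the macrophage genes LYZ, MS4A4A and MS4A6A, and the medians of the macrophage marker list were also higher in those glands (7.18, 7.58, 8.60 and 8.21 in glands 1 to 4), whose part in the other values was not tested. Also among them, LUM, a small matrix proteoglycan, read 4.03, 4.03, 6.89 and 7.29, RNASE2, a ribonuclease of leukocyte granules, 3.96, 3.55, 6.89 and 6.78, and APOD, a lipid carrier, 7.57, 8.39, 10.61 and 10.31.

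Gland 1 was the lowest for 8 of the 20 genes, not far from its share of 30.9% among all genes above background. Gland 2 was the lowest for 6, and glands 3 and 4 for 3 each. The 8 with gland 1 lowest were LOC708547, MS4A4A, APOD, LYZ and the interferon-induced IDO1, MX1, IFI44 and GBP1. MX1 read 5.58, 7.77, 8.64 and 8.95, IFI44 5.72, 7.98, 8.31 and 8.36, and GBP1 4.90, 6.57, 8.07 and 7.59. Gland 2 alone was high for KYNU, an enzyme of tryptophan breakdown (8.76, against 6.18, 6.08 and 5.77 in glands 1, 3 and 4), for TFPI2, a protease inhibitor (8.25, against 5.71, 5.52 and 5.66), and for DAPL1 (7.69, against 5.81, 4.78 and 4.83), beside CYP11B1. The labels give a range of days for the group and no day for single glands, so whether these values go with the day of collection was not tested.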
